A study of Mus musculus with 6 samples.

Results

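The retinoid genes examined here were the 9 genes Stra6, Aldh1a2, Cyp26b1, Crabp1, Crabp2, Rara, Rarb, Rarg and Rxra, of 51733 gene symbols in the count tables. They were chosen by symbol, for their roles in taking up retinol, making, breaking down and binding retinoic acid, and answering to it. The choice was made with earlier results of these data known. RNA was sequenced from Sox2-positive neural progenitor cells (NPCs) that were sorted from neural tubes of C57BL/6 mouse embryos at E13.5. In the paper the sorting used a Sox2-GFP reporter that embryos of both groups carried. Its methods list the reporter line, Sox2-eGFP, on a mixed background and not on C57BL/6 alone. The design compared wild-type control embryos with embryos that lack Ybx1, a DNA- and RNA-binding protein (Ybx1-KO, homozygous for the Ybx1 tm1Ley allele). The gene is lost in the whole embryo and not only in NPCs, both groups were sorted by Sox2, and the labels give neural tube as the source without naming its level. There were 3 libraries per group, written A, B and C for control replicates 1, 2 and 3, and D, E and F for the same replicates of Ybx1-KO.

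Retinoic acid is made inside cells from retinol, which the membrane receptor Stra6 can take up. Retinol is oxidised to retinal and then, by enzymes such as Aldh1a2, to retinoic acid. Crabp1 and Crabp2 bind it in the cytoplasm, Cyp26 enzymes break it down, and in the nucleus it binds the receptors Rara, Rarb and Rarg, which sit on DNA as pairs with an Rxr partner. In the embryonic neural tube retinoic acid is known for specifying the hindbrain and spinal cord and for promoting neuronal differentiation.

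The libraries held between 4743279 (F) and 23883542 (B) counts on genes, and all 3 control libraries were deeper than all 3 Ybx1-KO libraries. A count of 3 corresponded to between 0.126 and 0.632 CPM, the count scaled by the library total, a limit that covers counting error only. Library F stood apart. In it 59.5% of fragments fell outside genes, against 30.6% to 46.7% in the other libraries, and 1729 olfactory, vomeronasal and taste receptor genes together held 4554 CPM, against 22.5 to 95.9 CPM. Ybx1 stood at 235, 523 and 301 normalized CPM in A, B and C and at 124, 54.5 and 9.51 in D, E and F. The groups did not overlap, with a log2 fold change of -2.49 (SE 0.675), but with edgeR's quasi-likelihood test the adjusted p was 0.301. All 10 NPC markers examined, Sox2 among them, had counts in every library. They summed to 1402 to 1649 CPM in control and to 1075 to 1805 CPM in Ybx1-KO. Their log2 fold changes were above 0 for 6 and below for 4. Nes and Hes5 were higher and Slc1a3 lower in Ybx1-KO without overlap, while 13.2% of all genes tested did not overlap.

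None of the 9 retinoid genes was called different between Ybx1-KO and control NPCs (edgeR quasi-likelihood test, Benjamini-Hochberg adjusted p below 0.05 and fold change above 1.5). The same test called 0% of the 21329 genes tested, so the count says nothing particular about retinoid genes. All 9 passed the filter on low values (a mean above 1 FPKM, fragments per kilobase of exon scaled by the library total, in control or Ybx1-KO), and 2 of them, Crabp1 and Crabp2, had an unadjusted p below 0.05, a level reached by 11.2% of all genes tested (6.96% with Ybx1-KO higher and 4.26% with it lower). In the same 2 genes the groups did not overlap and Ybx1-KO was higher, which was the case for 4.99% of all genes tested, while 8.17% separated with Ybx1-KO lower, 13.2% in all. The log2 fold change was above 0 for 8 of the 9 genes, with a median of 0.68. Over all genes tested it was above 0 for 61.3%, with a median of 0.31. That median depended on which genes were tested. It was 1.99 for the 7365 genes with up to 1500 exon bases. For the 12078 protein-coding genes with a mean above 1 CPM in both groups it was -0.037. The sample titles carry a number that A and B share and another that D and E share, while C has its own and F none. The labels do not say what these numbers mark or which libraries came from separate embryos, so the p-values measure the spread between these libraries, which may be technical. With 3 against 3 libraries an exact permutation test cannot go below p = 0.1.

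**Figure D1:**
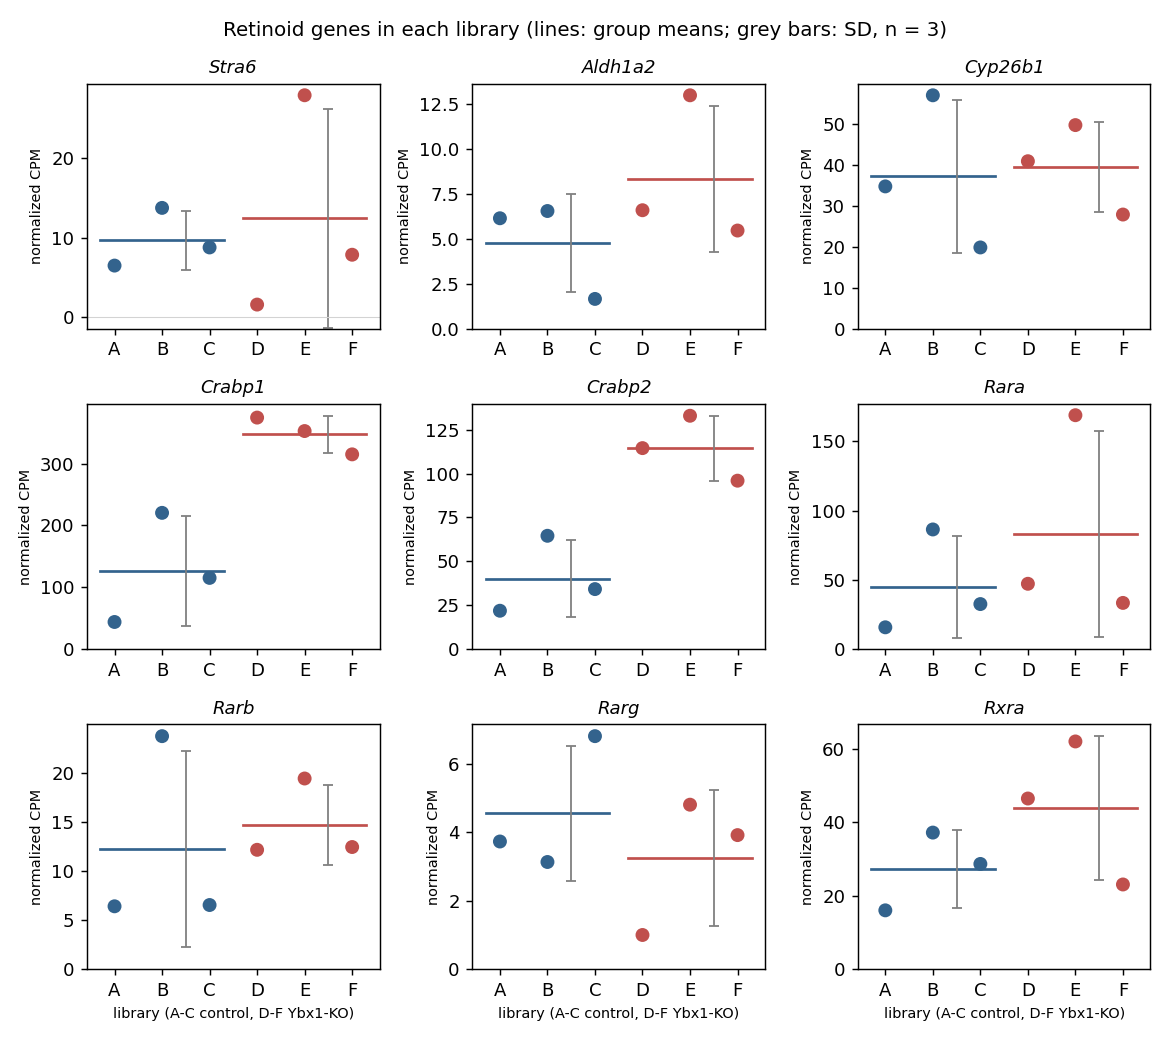
Normalized CPM of each of the 9 retinoid genes (y axes) in libraries A to F (x axes), with group means as lines and the SD (n = 3) as grey bars. The Ybx1-KO libraries lie above all control libraries for Crabp1 (315 to 374 CPM) and Crabp2 (96.0 to 133 CPM), and the groups overlap for the other 7 genes.

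Crabp1, which binds retinoic acid in the cytoplasm, was the most abundant of the 9 genes and one of the 2 that separated the groups. It stood at 43.7, 220.3 and 115 normalized CPM in control libraries A, B and C and at 374, 353 and 315 in D, E and F, the Ybx1-KO libraries. The controls spread widely, with A lowest and B highest, whereas the Ybx1-KO libraries lay close together and above every control. The means were 126 ± 88.8 CPM in control and 347 ± 30.1 in Ybx1-KO (SD, n = 3). The fitted fold change was 2.75, or 1.46 on the log2 scale (SE 0.526). In edgeR its adjusted p was 0.425, from an unadjusted p of 0.0133. The exact permutation test gave p = 0.1, two-sided. The gene (ENSMUSG00000032291) lies on the plus strand at chr9:54764748-54773110 (GRCm38) and has 802 exon bases.

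Crabp2, which carries retinoic acid to its nuclear receptors, gave a similar picture at a lower level. It stood at 21.8, 64.5 and 34.2 normalized CPM in A, B and C and at 115, 133 and 96.0 in D, E and F. Again A was the lowest and B the highest control, and all 3 Ybx1-KO libraries were above them. The means were 40.2 ± 22.0 CPM in control and 114 ± 18.5 in Ybx1-KO (SD, n = 3). The fold change of 2.85 was the largest among the 9 genes, at 1.51 on the log2 scale (SE 0.436). In edgeR its adjusted p was 0.349, from an unadjusted p of 0.00305. The exact permutation test again gave p = 0.1. Crabp2 (ENSMUSG00000004885) lies on the plus strand at chr3:87948666-87953376 and has 1322 exon bases.

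Both Crabp genes have under 1500 exon bases, and short genes had higher log2 fold changes than long ones. Among protein-coding genes with a mean above 1 CPM in both groups, the median log2 fold change was 0.32 for the 713 genes up to that length and -0.051 for the 11365 longer genes. With offsets adjusted for exon length, an alternative chosen after the data were seen, the log2 fold change was 1.21 for Crabp1 (unadjusted p = 0.0819 in edgeR) and 1.35 for Crabp2 (unadjusted p = 0.0230 in edgeR). The adjusted p was 0.50 for both. The ratio of the 2 genes to each other differed little between groups. Crabp1 made up 76.8%, 84.9% and 84.7% of their summed FPKM in A, B and C and 84.3%, 81.4% and 84.4% in D, E and F. The difference of 1.24 percentage points was within the spread of the libraries (exact permutation p = 1, two-sided).

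Fabp5, a fatty acid carrier that also binds retinoic acid, was at 91.2, 65.8 and 153 CPM in the controls and at 61.4, 96.7 and 50.9 in Ybx1-KO. The groups overlapped for Fabp5 (log2 fold change -0.57, SE 0.426).

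**Figure D2:**
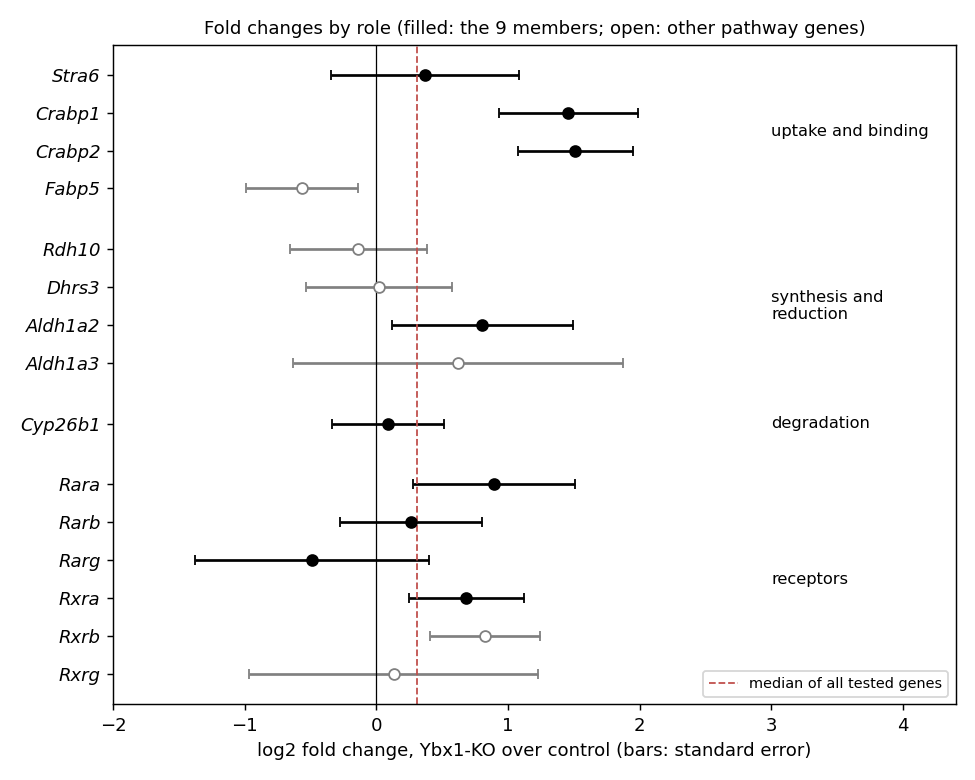
Log2 fold change of Ybx1-KO over control (x axis) with its standard error, for the 9 retinoid genes (filled) and other genes of the pathway (open) grouped by role. Crabp2 (1.51) and Crabp1 (1.46) lie furthest to the right, and the dashed line marks the median of all genes tested (0.31).

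Stra6, the membrane receptor for retinol-binding protein, was low and uneven. It was at 6.47, 13.7 and 8.75 normalized CPM in A, B and C and at 1.56, 27.9 and 7.83 in D, E and F. The Ybx1-KO libraries held both the lowest value (D, 14 counts) and the highest (E), so the groups overlapped. The log2 fold change was 0.37 (SE 0.713, adjusted p = 0.819 in edgeR). Stra6 spans chr9:58063788-58153996 on the plus strand and shares bases with Ccdc33 on the opposite strand and Gm16131 on its own strand. How counting treated strand was not given in the sources used here, so its counts are uncertain to that extent.

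Of 11 other genes for retinoid uptake, storage and supply, 7 were tested and none was called. Their median log2 fold change was 1.75, with 6 values above 0 and 1 below. That median was 0.38 with edgeR's filterByExpr, 0.33 with 1 surrogate variable, 1.14 without F and 2.62 without D. The one below was Ttr, the carrier of plasma retinol-binding protein and a product of choroid plexus. Ttr was at 693, 38.0 and 936 normalized CPM in A, B and C and at 48.1, 55.5 and 19.4 in D, E and F. Controls A and C were far above the other 4 libraries, and B lay below D and E (log2 fold change -3.76, SE 0.826, adjusted p = 0.184 in edgeR). The 8 choroid plexus markers, Ttr included, summed to 126 to 1048 CPM in control and to 93.6 to 139 CPM in Ybx1-KO. Ttr itself made up most of the sum in A (693 of 815 CPM) and C (936 of 1048 CPM). Clic6, Aqp1, Kcne2 and Sostdc1 were also highest in A and C. Folr1 and Kl were highest in F, and Otx2 was higher in B and E than in C. The part of choroid plexus in the Ttr value was not tested. Folr1 was at 0 counts in E.

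Aldh1a2, which oxidises retinal to retinoic acid, was at 6.14, 6.54 and 1.65 normalized CPM in A, B and C and at 6.59, 13.0 and 5.46 in D, E and F. Library C was lowest and E highest, and F lay below A and B, so the groups overlapped. The log2 fold change was 0.80 (SE 0.687, adjusted p = 0.582 in edgeR). Scaled by gene length and by the library's total on genes, without TMM factors, the values were 2.76, 2.63 and 0.676 FPKM in A, B and C and 3.07, 4.21 and 3.63 in D, E and F. On that scale the groups did not overlap, so whether they separate depends on the scaling. The share of all genes that separate on that scale was not counted. Aldh1a2 is also expressed in meninges, and the 12 meningeal and mesenchymal markers summed to 153 to 925 CPM in control and to 102 to 156 CPM in Ybx1-KO. The sums overlapped, with B (153) below E (156), and in A Col3a1 alone held 323 of the 925 CPM. Of 10 markers tested, 9 had a log2 fold change below 0. Foxd1 was the 1 above 0 and separated the groups. Foxc1 and Pdgfrb were highest in E, as Aldh1a2 was. All 12 markers had counts in every library, and their part in the Aldh1a2 level was not tested. The gene lies on the plus strand at chr9:71215789-71296243.

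Of 13 other enzymes that oxidise retinol or retinal or reduce retinal, 9 were tested and none was called. They had 4 log2 fold changes above 0 and 5 below, with a median of -0.14, and no gene separated the groups. Rdh10, the main retinol dehydrogenase of the embryo, had a log2 fold change of -0.14 (SE 0.519). Dhrs3, which reduces retinal back to retinol, had one of 0.019 (SE 0.553). Aldh1a3, another retinal dehydrogenase, ranged from 0.737 to 3.73 CPM in control and from 0.112 to 8.25 CPM in Ybx1-KO (log2 fold change 0.62, SE 1.26).

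Cyp26b1, which breaks down retinoic acid, had nearly the same mean in both groups. It was at 34.7, 56.9 and 19.8 normalized CPM in A, B and C and at 40.9, 49.7 and 27.8 in D, E and F. Every Ybx1-KO value lay inside the control range. The means were 37.2 ± 18.7 CPM in control and 39.5 ± 11 in Ybx1-KO (SD, n = 3). The log2 fold change of 0.087 (SE 0.425, adjusted p = 0.938 in edgeR) was the smallest in size among the 9 genes. The gene lies on the minus strand at chr6:84571414-84593908. The other 2 Cyp26 genes were close to absent. Cyp26a1 had 0, 1 and 0 counts in A, B and C and 0, 5 and 11 in D, E and F, and did not pass the filter. Cyp26c1 had 0, 2 and 0 counts in the controls and 0, 15 and 27 in Ybx1-KO (unadjusted p = 0.0416 in edgeR, adjusted p = 0.444).

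Among the 3 retinoic acid receptor genes Rara was the most abundant in every library. It was at 15.7, 86.3 and 32.5 normalized CPM in A, B and C and at 47.1, 169 and 33.3 in D, E and F. B was the highest control and E the highest Ybx1-KO library, and D and F lay within the control range. The means were 44.8 ± 36.9 CPM in control and 83.1 ± 74.6 in Ybx1-KO (SD, n = 3), with a log2 fold change of 0.89 (SE 0.616). The adjusted p was 0.510 in edgeR's test, and the difference was smaller than the spread. Rara lies on the plus strand at chr11:98927818-98974942 and overlaps the small nuclear RNA gene Gm22061 on its own strand.

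Rarb, whose promoter is the classic target of retinoic acid, was at 6.42, 23.7 and 6.55 normalized CPM in A, B and C and at 12.2, 19.4 and 12.5 in D, E and F. All Ybx1-KO values lay between the highest and the lower 2 controls. The log2 fold change was 0.26 (SE 0.537, adjusted p = 0.829 in edgeR). Rarb lies on the minus strand at chr14:16430839-16819156 and overlaps Top2b on the opposite strand.

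The Rarb start window is printed because it was the only one, of 16 RefSeq windows for 8 of the 9 genes (250 bases before to 50 after a start, GRCm38.p6), to hold a direct repeat of the receptor hexamers, and the Crabp1 window is printed beside it because Crabp1 separated the groups. The hexamers searched on both strands were AGGTCA and its variants spelled AGTTCA or GGTTCA or GGGTCA, in any pair on the same strand spaced by 1, 2 or 5 bases. Capitals mark the repeat, which has a spacer of 5 bases and begins at -53 from the start.
Rarb, chr14:16575427-16575726, minus strand: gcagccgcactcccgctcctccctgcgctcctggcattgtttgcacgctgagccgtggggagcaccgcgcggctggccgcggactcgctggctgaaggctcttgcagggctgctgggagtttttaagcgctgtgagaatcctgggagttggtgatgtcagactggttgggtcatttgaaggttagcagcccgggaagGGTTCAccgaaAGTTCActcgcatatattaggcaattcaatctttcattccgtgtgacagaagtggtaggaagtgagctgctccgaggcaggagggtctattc
Crabp1, chr9:54764498-54764797, plus strand: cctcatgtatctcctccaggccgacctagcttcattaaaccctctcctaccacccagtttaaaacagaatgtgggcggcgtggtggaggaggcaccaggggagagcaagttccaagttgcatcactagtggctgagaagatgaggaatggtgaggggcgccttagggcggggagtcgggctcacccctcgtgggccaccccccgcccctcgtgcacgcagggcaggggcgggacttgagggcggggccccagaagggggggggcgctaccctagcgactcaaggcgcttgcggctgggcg
Of 32851 windows in the whole table, 0.588% held such a repeat with any of these spacers and 0.0974% one with a spacer of 5. A match of letters is a description and not a bound site. No window was given for Crabp2.

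Rarg was the lowest of the 9 genes and the only one with a negative log2 fold change. It was at 3.73, 3.13 and 6.80 normalized CPM in A, B and C and at 1.00, 4.80 and 3.92 in D, E and F. C was highest and D, with 9 counts, lowest, and E and F lay within the control range. The log2 fold change was -0.49 (SE 0.890, adjusted p = 0.806 in edgeR). The gene lies on the minus strand at chr15:102234938-102257517.

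The receptor mixture was compared within each library, as the share of each gene in the summed FPKM of the 3 Rar genes, which does not depend on scaling between libraries. Rara made up 63.2%, 79.1% and 72.4% in A, B and C and 80.9%, 88.9% and 69.9% in D, E and F. The shares overlapped, and the means differed by 8.39 percentage points (exact permutation p = 0.4, two-sided, 0.8 adjusted over 4 shares). Rarb made up 21.4%, 18.0% and 12.1% in the controls and 17.3%, 8.48% and 21.7% in Ybx1-KO (exact permutation p = 0.8, adjusted 1). Rarg made up 15.4%, 2.94% and 15.5% in the controls and 1.77%, 2.59% and 8.42% in Ybx1-KO (exact permutation p = 0.2, adjusted 0.8). The Rarg share was thus low in B as well as in D and E.

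**Figure D3:**
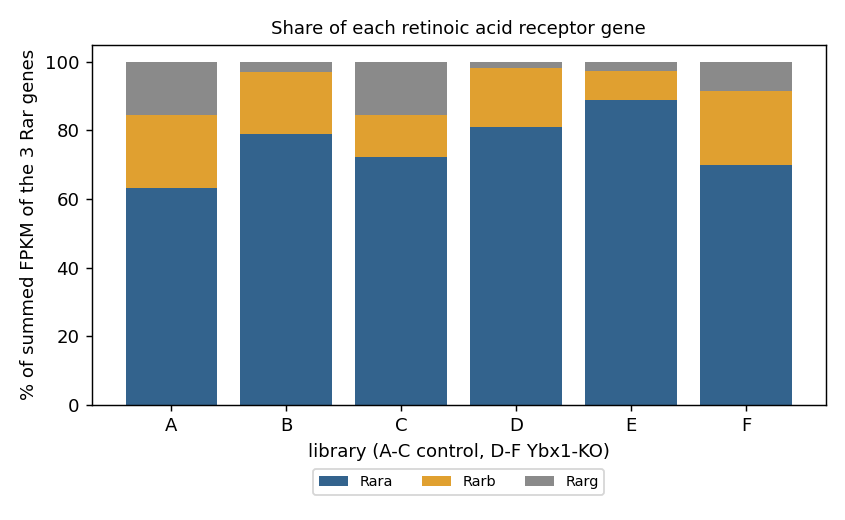
Share of Rara, Rarb and Rarg in their summed FPKM (y axis, %) in each library (x axis), as stacked bars that start at 0. Rara holds between 63.2% (A) and 88.9% (E), and the Rarg share runs from 1.77% (D) to 15.5% (C).

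Rxra, the DNA-binding partner of these receptors, was at 16.1, 37.2 and 28.7 normalized CPM in A, B and C and at 46.4, 61.9 and 23.1 in D, E and F. D and E were above all controls, and F lay between A and C. The log2 fold change was 0.68 (SE 0.438, adjusted p = 0.490 in edgeR). As FPKM without TMM factors the values were 2.99, 6.19 and 4.86 in the controls and 8.98, 8.33 and 6.37 in Ybx1-KO. On that scale, as for Aldh1a2, the groups did not overlap, with F just above B. Counts at the rate seen on sensory receptor genes would make up 12.5% of the Rxra counts in F. The share of all genes that separate on this scale was not counted. Rxra lies on the plus strand at chr2:27676440-27762957. The partners Rxrb and Rxrg had log2 fold changes of 0.82 (SE 0.417) and 0.13 (SE 1.1), and both overlapped between groups.

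All 17 other receptor partners and co-regulators passed the filter and none was called. They had 8 log2 fold changes above 0 and 9 below, with a median of -0.034. The corepressor Ncor1, which binds receptors without ligand, had a log2 fold change of -0.54 (SE 0.451). Over all genes tested 13.2% separated the groups, 8.17% with Ybx1-KO lower. Of the 17 genes in this list 1 did, Ncoa1, a coactivator that binds receptors with ligand. Ncoa1 was at 78.1, 52.6 and 62.9 normalized CPM in A, B and C and at 19.0, 47.7 and 24.1 in D, E and F. All Ybx1-KO values were lower, though E came close to B (log2 fold change -1.09, SE 0.414, adjusted p = 0.432 in edgeR).

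Levels of the 9 genes were ranked on the FPKM scale, which allows for gene length. In control the mean was 146 ± 97.8 FPKM for Crabp1, 28.4 ± 14.3 for Crabp2, 9.51 ± 7.51 for Rara, 6.56 ± 3.12 for Cyp26b1, 4.68 ± 1.61 for Rxra, 2.16 ± 1.67 for Rarb, 2.02 ± 1.17 for Aldh1a2, 1.55 ± 0.525 for Stra6 and 1.01 ± 0.419 for Rarg (SD, n = 3). Crabp1 was above Crabp2 in all 3 controls with no overlap of their ranges, and each of the other neighbours in this order overlapped. In Ybx1-KO the means were 469 ± 136 FPKM for Crabp1, 91.6 ± 17.8 for Crabp2, 17.1 ± 9.79 for Rara, 7.89 ± 1.36 for Rxra, 7.57 ± 0.664 for Cyp26b1, 3.64 ± 0.569 for Aldh1a2, 2.90 ± 0.587 for Rarb, 1.94 ± 1.62 for Stra6 and 0.821 ± 0.568 for Rarg. The ranges there were separate down to Rara over Rxra and again for Cyp26b1 over Aldh1a2, and the other neighbours overlapped. The cytoplasmic binding proteins therefore headed the order in both groups, and Stra6 and Rarg closed it.

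Of 18 known retinoic acid response genes, 4 of which are among the 9 genes and 4 in the other lists of the pathway, 15 were tested and none was called. There were 13 log2 fold changes above 0 and 2 below, with a median of 1.19, and the unadjusted p was below 0.05 for 5 of them. Crabp2 and Hoxb1 were among the response genes that separated the groups with Ybx1-KO higher, as 4.99% of all genes tested did. Hoxb1, a hindbrain patterning gene, had 2, 47 and 0 counts in A, B and C and 57, 93 and 102 in D, E and F (log2 fold change 3.72, SE 1.18, adjusted p = 0.388 in edgeR). Without B the controls held 2 counts in all, and its fitted log2 fold change was 7.46 (adjusted p = 0.00883 in edgeR). Hoxb4, which marks the posterior hindbrain and spinal cord, was at 4.77, 25.3 and 5.85 normalized CPM in the controls and at 20.1, 46.4 and 20.7 in Ybx1-KO. Its control B lay above D and F, so the groups overlapped (log2 fold change 1.28, SE 0.580, adjusted p = 0.444 in edgeR). That value was 0.69 without E and 2.46 without B. Cdx1 had counts only in F (31), where the rate on sensory receptor genes would account for 21.3% of them. Over the alternatives the median of the list ran from 0.44 (without E) to 1.78 (without B), and it was 0.63 with TMM-scaled FPKM in the filter, with filterByExpr or with 1 surrogate variable.

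Markers of position along the neural tube also differed between libraries. The 15 hindbrain and spinal Hox genes summed to 82.5, 681 and 195 normalized CPM in A, B and C and to 921, 906 and 416 in D, E and F. Control B was above F, so the sums overlapped. The log2 fold change was above 0 for 15 of 15 genes, with a median of 1.37, against 61.3% of all genes tested. These genes lie in clusters on chr6, chr11 and chr15, so they are not 15 independent values. Of the 15, 2 separated the groups, Hoxa3 and Hoxb2, with Ybx1-KO higher, as 4.99% of all genes tested did. The controls had the same order, A below C below B, for the Hox sum and for Crabp1, Crabp2, Rara, Rarb, Rxra and Stra6. The neural crest, motor neuron and neuron sums given below also had it. Cyp26b1, Aldh1a2 and Rarg had other orders. The 8 forebrain markers summed to 461, 143 and 748 CPM in the controls and to 307, 236 and 80.3 in Ybx1-KO, with Emx1 at 0 in one library. Hoxb4 belongs to both the Hox list and the response list.

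Markers of other cells that express retinoid genes were also unequal. The 6 neural crest and glial precursor markers summed to 48.4, 111 and 76.6 normalized CPM in A, B and C and to 170, 329 and 95.7 in D, E and F. The 6 motor neuron markers summed to 13.9, 45.2 and 18.5 CPM in the controls and to 40.1, 54.2 and 52.7 in Ybx1-KO. The 12 pan-neuronal markers summed to 3334 to 5395 CPM in control and to 1847 to 4563 CPM in Ybx1-KO. The part that any of these markers had in the values of Crabp1, Crabp2 and the response genes was not tested. In sorted bulk RNA, more cells of one type and more RNA per cell cannot be told apart.

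**Figure D4:**
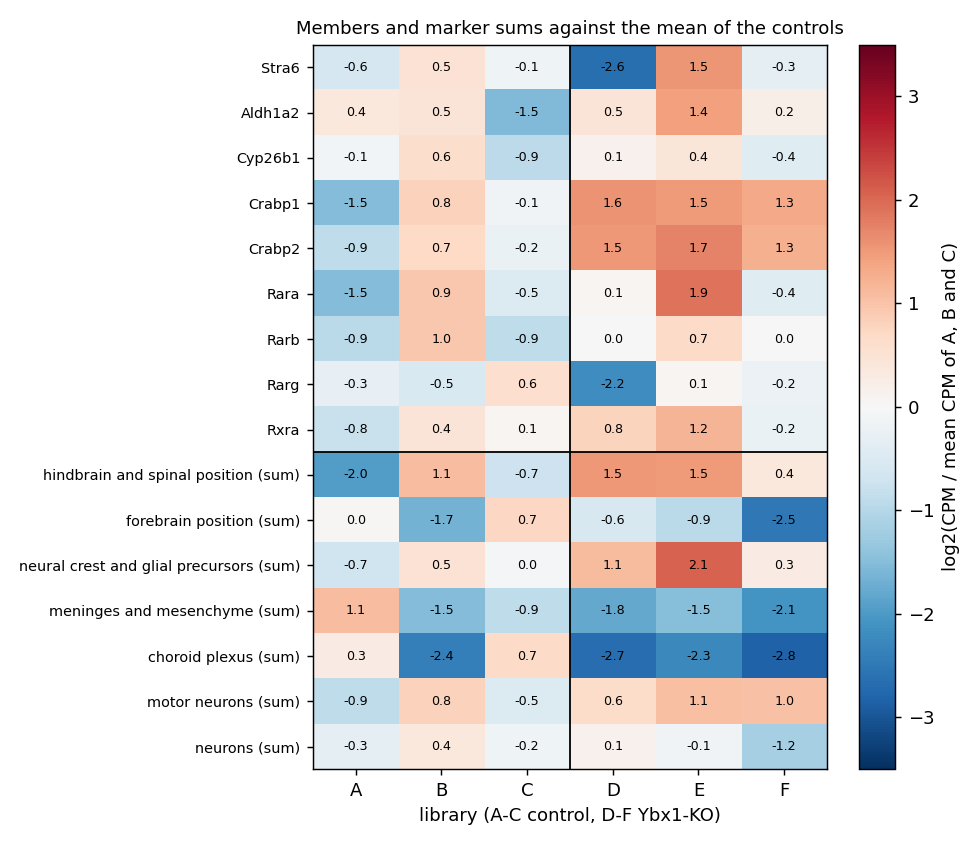
Level of each of the 9 retinoid genes and of 7 marker sums in each library, as log2 of CPM over the mean of the 3 controls (colour and printed value). Crabp1 and Crabp2 are above 1 in all 3 Ybx1-KO libraries, and the Hox sum runs from -1.95 in A to 1.53 in D.

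In library F the rate of counts on sensory receptor genes was large beside the low retinoid genes and small beside the binding proteins. Taken at the rate per exon base seen on sensory receptor genes, such counts would be 0.135% of the Crabp1 counts and 0.728% of the Crabp2 counts in F. They would be 6.93% for Rara, 10.2% for Cyp26b1, 12.5% for Rxra, 21.9% for Aldh1a2, 22.4% for Rarb, 39.3% for Stra6 and 57.5% for Rarg. In the other 5 libraries the share was at most 2.48% for any of the 9 genes. With that rate subtracted in every library, an alternative chosen after the data were seen, the log2 fold change was 1.55 for Crabp1 and 1.60 for Crabp2. Without F it was 1.55 for Crabp1 and 1.64 for Crabp2. Leaving out a control gave 1.05 without A and 2.13 without B for Crabp1, and 1.21 without A and 2.04 without B for Crabp2.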

How the data were processed

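Total RNA from sorted Sox2-positive NPCs was sequenced as paired ends after TruSeq Stranded preparation, in 3 control and 3 Ybx1-KO libraries. HTSeq 0.6.1p1 gave the authors raw counts of fragments per GENCODE gene, deposited as 1 table per library. Submitters' processing notes name mm10 and GRCm38.p5. The aligner and the strand setting were not given in the sources used here. Fragments outside genes were left out of the totals.

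The deposited counts were scaled by TMM factors and tested with edgeR 4.0.16 (quasi-likelihood, no covariates) in R 4.3.3 on 21329 genes whose mean FPKM exceeded 1 in at least 1 group. FPKM used exon-union lengths of GENCODE M21 (47624 of 51733 symbols matched, 357 more by an older symbol) and each library's total on genes, and normalized CPM used the TMM-scaled total. P-values were adjusted by the Benjamini-Hochberg method over all genes tested. Single values and shares were compared by exact permutation. The study's methods used voom, which is an alternative here (limma 3.58.1), as were DESeq2 1.42.0, sva 3.50.0, other scalings and filters, and leaving out each library. Scripts were tested on simulated data.

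All 9 retinoid genes are named, with Ybx1. From the pathway lists the text names every gene with an unadjusted p below 0.05 or without overlap between groups, except some that are not reported here, and others by role, chosen after their values were seen. The members and lists were chosen with earlier results of these data known.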

Additional observations from a re-analysis of the deposited data

How the results depend on the processing

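Depth ran from 4743279 to 23883542 counts per library, and its part in the number of calls was not tested. Without control A, B or C the numbers below rest on 2 controls, and without D, E or F on 2 Ybx1-KO libraries. The edgeR test called 0 genes higher and 0 lower, while DESeq2 called 118 and 96, and edgeR with no filter 113 and 80. Leaving out 1 library gave 0 to 531 genes higher and 0 to 247 lower (29 and 44 without B, 531 and 165 without D, 478 and 247 without E). At an unadjusted p below 0.05 edgeR had 2393 genes, against 1032 without A, 1554 without B, 1332 without C, 3846 without D and 4018 without E. Limma-voom had 1655, and 1079 with title numbers as a random block. Only 1 retinoid gene, Crabp2, reached that level without A, without C or with length offsets. DESeq2 called 1 of the 9 retinoid genes, Crabp2 (log2 fold change 1.60, adjusted p = 0.0187), and every other setting called 0. Over 21 alternatives the adjusted p ran from 0.0187 to 0.783 for Crabp2 and from 0.0750 to 0.783 for Crabp1, and both, with Rxra and Aldh1a2, kept a positive sign in all 21. Rarg kept its negative sign in the 19 that tested it. The number of retinoid genes with a positive value ran from 4 (without E) to 8 when 1 library was left out, and the median over the 9 genes was -0.068 without E. Leaving out 1 library gave log2 fold changes of 0.30 (without E) to 1.00 (without F) for Rxra, 0.27 (without E) to 1.104 (without B) for Aldh1a2, -1.005 (without E) to -0.13 (without D) for Rarg, 1.05 (without A) to 2.13 (without B) for Crabp1, -0.22 (without E) to 1.79 for Rara, -0.068 to 1.18 for Rarb, -0.21 to 0.54 for Cyp26b1 and -1.16 (without E) to 0.86 for Stra6. The sign also turned for Rarb without A (-0.042) or C (-0.034), for Cyp26b1 without C (-0.21) or E (-0.17) and with no filter (-0.0068), and for Stra6 with limma-voom (-0.34). The Rarb share difference ran from -4.29 points (without F) to 2.31 (without E), with 0.766 without A, and the Crabp1 share difference from -1.45 (without A) to 2.63 (without B). The causes were not tested. The median of all genes tested was 0.31, against 0.51 with total counts alone, 0.70 with no filter, 0.013 without F and -0.049 with 1 surrogate variable. No paired analysis was possible because no control shares a title number with a Ybx1-KO library. The random block on title numbers gave -0.31 for Stra6. Of the other pathway genes, Ttr and Hoxb1 were called in 4 of 21 alternatives each, and Ncoa1 and Hoxb4 in 1 each.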

Other observations

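The genes whose levels followed the binding proteins most closely over the 6 libraries were named by correlation of log2(normalized CPM + 0.5) among 12077 protein-coding genes with a mean above 1 CPM in both groups. These correlations are descriptions over 6 points that share library and depth. For Crabp2 they were Lpar2, a receptor for lysophosphatidic acid (r = 0.994), Mcm3, a subunit of the replicative helicase (r = 0.993), and Onecut3, a homeodomain factor (r = 0.991). For Crabp1 they were Slco4a1, an organic anion transporter (r = 0.984), the hindbrain gene Hoxa3 (r = 0.983) and again Onecut3 (r = 0.983). Rara was closest to Pnpla6, a lysophospholipase (r = 0.987), the kinase gene Sik3 (r = 0.986) and the zinc finger gene Plagl2 (r = 0.986). Crabp1 and Crabp2 had r = 0.975 with each other, whereas Crabp1 and Stra6 had r = 0.028 (6 libraries each).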
